A study of Mus musculus with 8 samples.

Results

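The genes described here are 8 markers of the somatostatin (SST) class of cortical inhibitory neurons: Sst, Chodl, Nos1, Npy, Crhbp, Elfn1, Calb1 and Hpse. They were taken by symbol from the 55341 gene symbols of each count file. All 8 passed the filter on low counts and were tested with 17355 genes in all. The libraries hold nuclear RNA of GABAergic nuclei sorted from the cortex of juvenile mice, with 1 mouse per library. Mice of the PTU group (mice 9 to 12, n = 4) were hypothyroid because their mothers had received propylthiouracil (PTU), an inhibitor of thyroid hormone synthesis, during pregnancy. Mice of the PTU+TH group (mice 13 to 16, n = 4) shared that treatment and also received thyroid hormone (TH) by intraperitoneal injection, 24 h ahead of brain collection. Both groups carried a nuclear fluorescent reporter switched on by Cre recombinase, whose driver is not named in the sources used here. Age, sex and litter are not given there either. Y-linked counts were at 0 in PTU+TH mice 15 and 16 and present in the other 6 libraries, so the comparison sets 4 mice with a Y chromosome against 2 with and 2 without one.

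Neurons of the SST class inhibit the dendrites of other cortical neurons and release the peptide somatostatin beside GABA. Many are Martinotti cells with axons in the uppermost layer, and a rare type that makes neuronal nitric oxide synthase and neuropeptide Y sends its axon over long distances. Thyroid hormone acts through nuclear receptors that bind DNA and regulate transcription, and the developing cortex depends on it. In RNA pooled from all GABAergic nuclei, fewer cells of a type and less RNA per cell cannot be told apart.

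Library totals ranged from 21.8 to 29.1 M counts. Levels are given in CPM, counts scaled to a common library size after TMM normalization. Gad1, which encodes an enzyme that makes GABA, averaged 470.8 ± 51.7 CPM in the PTU mice and 421.9 ± 22.3 CPM in the PTU+TH mice, and the excitatory neuron gene Slc17a7 averaged 35.18 ± 18.6 and 38.45 ± 15.6 CPM (SD, n = 4 each). Hr, a known TH target, stood between 1.05 and 2.22 CPM in the PTU mice and between 24.65 and 28.53 CPM in the PTU+TH mice (edgeR quasi-likelihood test, adjusted p = 6.59e-07), so the libraries separate as labelled. The TH targets Klf9 (log2 fold change 1.37, edgeR adjusted p = 0.00223) and Dbp (1.09, adjusted p = 0.00639) were called higher too. Both lost their call in the 6 libraries with Y-linked counts, which hold fewer PTU+TH mice (edgeR adjusted p = 0.058 and 0.102). Their log2 fold changes there were 1.23 and 1.14. The libraries also differed by gene length. In PTU mouse 9 the median gene with a body under 10 kb lay 0.19 above its mean over the 8 libraries on the log2 scale, and the median gene over 100 kb lay 0.25 below it (a deviation of -0.25). In PTU mouse 11 these deviations were -0.13 and 0.20. The gene bodies of the 8 markers run from 1.39 kb (Sst) to 177.81 kb (Nos1), so values with this trend removed are given where they matter.

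**Figure D1:**
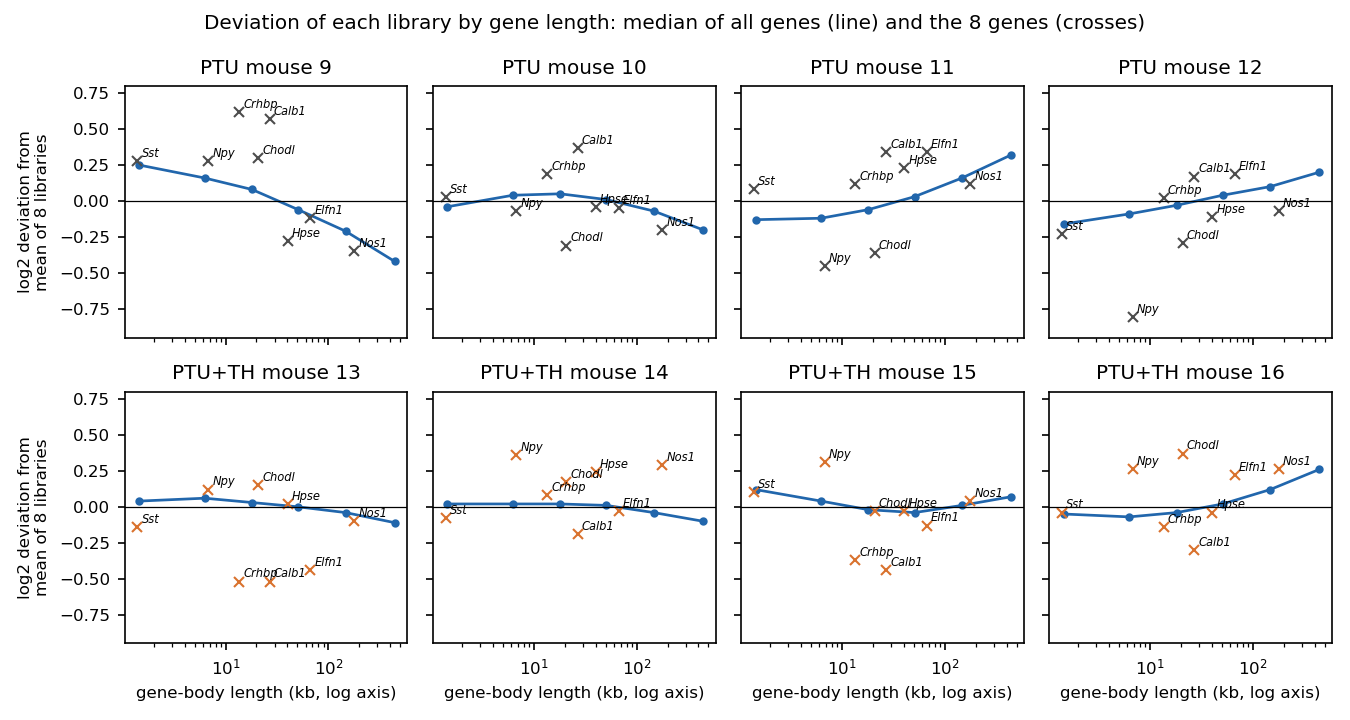
Deviation of each library from the mean of the 8 libraries (y axis, log2) against gene-body length (x axis, kb, log axis). Lines join the medians of all genes averaging 1 CPM or more in 6 length classes, and crosses are the 8 SST class genes. The line falls with length in PTU mouse 9 and rises in PTU mice 11 and 12, and Crhbp and Calb1 lie above it in all 4 PTU libraries.

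Of the 8 genes, 1 differed between the groups. Calb1, which encodes the calcium-binding protein calbindin, fell by 39.6% in PTU+TH. None of the 8 was called higher. Over all 17355 genes tested, 2.12% were called, 1.49% higher and 0.634% lower in PTU+TH. Median log2 fold changes were 0.00 over the 8 genes and -0.01 over all genes tested. The other 7 genes had log2 fold changes from -0.48 (Crhbp) to 0.47 (Npy), and none of them passed an adjusted p of 0.05.

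**Figure D2:**
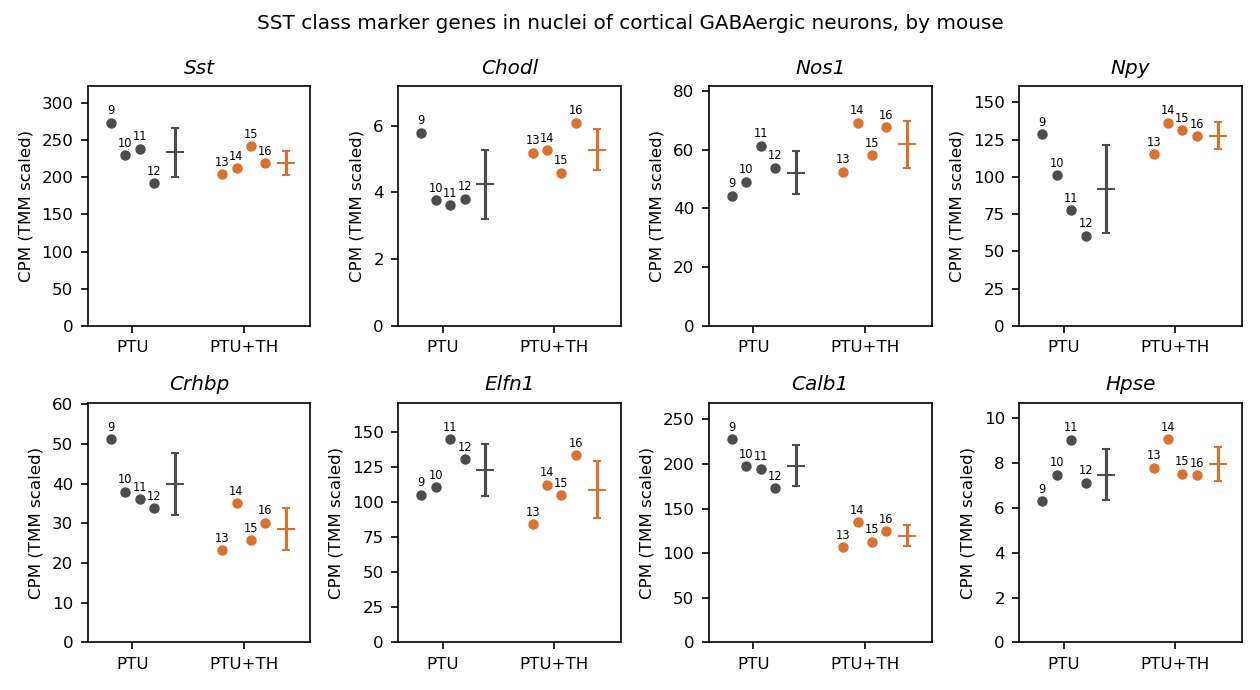
CPM of the 8 genes (y axis, from 0) in each mouse (points, with the mouse number), with the mean and SD of the 4 mice of a group beside them. Calb1 is the only panel in which the groups do not overlap: the lowest PTU mouse is at 172.7 CPM and the highest PTU+TH mouse at 134.7 CPM.

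Calb1 (ENSMUSG00000028222.2; chromosome 4, 15881264 to 15908064, plus strand, GRCm38) buffers calcium in the cytoplasm and marks many, but not only, SST neurons. It stood at 227.9, 197.9, 194.7 and 172.7 CPM in PTU mice 9, 10, 11 and 12, and at 107.1, 134.7, 113.0 and 124.4 CPM in PTU+TH mice 13, 14, 15 and 16. Every PTU library thus lay above every PTU+TH library, an ordering that 8.71% of all tested genes also showed in one direction or the other. The means were 198.3 ± 22.7 and 119.8 ± 12.3 CPM (SD, n = 4 each), a log2 fold change of -0.73 (SE 0.11, 95% interval -0.96 to -0.49, edgeR adjusted p = 0.00328). With the length trend removed the log2 fold change was -0.72 (edgeR adjusted p = 0.000505), and the counts behind it, 2488 to 6256 per library, leave little counting error.

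In the 6 libraries with Y-linked counts, 4 PTU against 2 PTU+TH, the log2 fold change of Calb1 was -0.71 and its adjusted p was 0.103, so the call was lost there. With the presence of Y-linked counts as a further term it was -0.71 with an edgeR adjusted p of 0.047. Within PTU+TH, the mice with Y-linked counts (107.1 and 134.7 CPM) lay on both sides of the mice without them (113.0 and 124.4 CPM). Calbindin is also known from striatal projection neurons and some excitatory neurons. The 7 striatal projection neuron markers summed to between 139.3 and 185.2 CPM in the PTU mice and between 120.8 and 148.7 CPM in the PTU+TH mice. None of these 7 was called and 5 had a negative log2 fold change. They included Rgs9 (82.35 CPM in the PTU mice, log2 fold change -0.19) and Penk (47.25 CPM, log2 fold change -0.62, unadjusted p = 0.00746, edgeR adjusted p = 0.155) and Ppp1r1b (0.652 CPM, log2 fold change -0.44). The 8 excitatory markers summed to between 38.62 and 112.5 CPM in the PTU mice and between 46.69 and 123.2 CPM in the PTU+TH mice, with 0 called, 7 of 8 positive and a median log2 fold change of 0.07. No defining marker of either list was at 0 in all libraries, and their part in the Calb1 difference was not tested.

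Crhbp (ENSMUSG00000021680.8; chromosome 13, 95431371 to 95444924, minus strand) encodes a secreted protein that binds corticotropin-releasing hormone and keeps it from its receptors. Its levels were 51.18, 37.97, 36.12 and 33.81 CPM in the PTU mice and 23.19, 35.07, 25.80 and 30.12 CPM in the PTU+TH mice. PTU mouse 9 was the highest library, and the groups overlapped only through PTU+TH mouse 14, which lay above PTU mouse 12. The log2 fold change was -0.48 (SE 0.15, 95% interval -0.81 to -0.15), with an unadjusted p of 0.00847 and an edgeR adjusted p of 0.164. With the length trend removed it was -0.46 with an adjusted p of 0.0886, and the groups just separated, at 34.82 CPM in the lowest PTU mouse and 34.49 CPM in the highest PTU+TH mouse. In length-corrected CPM the groups did not overlap for 10.8% of all tested genes.

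Sst (ENSMUSG00000004366.4; chromosome 16, 23889573 to 23890958, minus strand) encodes the precursor of somatostatin, the peptide that names the class. It stood at 273.5, 229.6, 238.4 and 191.9 CPM in the PTU mice and at 204.2, 212.6, 241.6 and 219.1 CPM in the PTU+TH mice. All 4 PTU+TH values lay between the lowest and the highest PTU value. The log2 fold change was -0.09 (SE 0.12, edgeR adjusted p = 0.85), and its 95% interval of -0.34 to 0.16 spans levels from 0.79 to 1.12 times that of PTU. Without PTU mouse 9 the estimate was 0.00081. With the length trend removed the coefficient of variation of Sst among the PTU mice went from 14.4% to 8.34%.

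The start regions of Sst and Crhbp are shown because Sst marks the whole class and Crhbp is the member that varied most closely with Calb1 among mice. RefSeq windows (GRCm38.p6, 250 bases before to 50 after the start site) were matched for 7 of the 8 genes, all but Calb1. Capitals mark the cyclic AMP response element TGACGTCA in Sst, through which cyclic AMP is known to drive this gene. In Crhbp they mark AGGTCA, which is only a single half-site of a paired thyroid hormone receptor element. Searched on both strands, TGACGTCA is held by 1.79% of 32851 windows and, among the 7, by Sst. AGGTCA is held by 16.3% of windows and, among the 7, by Crhbp and Elfn1. The paired form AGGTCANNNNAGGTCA, which contains AGGTCA at each end, is held by 0.0152% of windows and by 0 of the 7. The Sst window spans chr16:23890795-23891094 on the minus strand, and its element begins 48 bases before the RefSeq start site. The gene span given above for Sst starts farther upstream, so the element lies inside that span. The Crhbp window spans chr13:95444782-95445081 on the minus strand, and its half-site begins 152 bases before the RefSeq start site. The gene span given above for Crhbp also starts farther upstream, but the half-site lies outside it. A match describes these letters and shows no binding.
Sst: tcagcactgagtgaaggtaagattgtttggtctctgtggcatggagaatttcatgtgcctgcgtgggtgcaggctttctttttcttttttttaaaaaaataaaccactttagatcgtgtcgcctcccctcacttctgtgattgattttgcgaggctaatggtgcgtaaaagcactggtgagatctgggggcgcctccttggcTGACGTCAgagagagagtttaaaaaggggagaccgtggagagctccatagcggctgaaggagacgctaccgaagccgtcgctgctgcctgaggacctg
Crhbp: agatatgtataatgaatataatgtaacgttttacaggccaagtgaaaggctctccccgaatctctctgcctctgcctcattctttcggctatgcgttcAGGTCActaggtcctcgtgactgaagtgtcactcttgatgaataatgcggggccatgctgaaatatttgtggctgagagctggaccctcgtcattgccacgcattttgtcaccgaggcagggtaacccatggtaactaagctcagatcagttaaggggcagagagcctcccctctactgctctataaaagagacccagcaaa

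Npy (ENSMUSG00000029819.6; chromosome 6, 49822710 to 49829507, plus strand) encodes neuropeptide Y, which SST neurons share with neurogliaform cells of the LAMP5 class. Its levels were 128.8, 101.1, 77.73 and 60.58 CPM in the PTU mice and 115.4, 136.4, 131.4 and 127.5 CPM in the PTU+TH mice. The PTU mice spread over a 32.2% coefficient of variation and the PTU+TH mice over 7.0%, and only PTU mouse 9 reached the range of the PTU+TH mice. The log2 fold change of 0.47 (SE 0.19, 95% interval 0.06 to 0.88) had an unadjusted p of 0.029 and an edgeR adjusted p of 0.304. Without PTU mouse 9 it was 0.68 and passed, with an edgeR adjusted p of 0.0261. Removing the length trend left that mouse highest in PTU, at 115.3 length-corrected CPM, and gave an adjusted p of 0.111. The 6 markers of the LAMP5 class, of which 0 were called and none was at 0, summed to between 1187.7 and 1342.6 CPM in the PTU mice and between 992.1 and 1178.6 CPM in the PTU+TH mice. Most of that sum is Reln, at 1020.8 CPM in the PTU mice and 874.9 CPM in the PTU+TH mice. The 6 genes had estimates of both signs, 2 positive and 4 negative, from -0.75 (Ndnf) to 0.45 (Cxcl14), and their part in the Npy values was not tested.

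Nos1 (ENSMUSG00000029361.18; chromosome 5, 117781032 to 117958840, plus strand) encodes the neuronal enzyme that makes the diffusible messenger nitric oxide. It stood at 44.41, 49.11, 61.36 and 53.84 CPM in the PTU mice and at 52.54, 69.24, 58.10 and 67.67 CPM in the PTU+TH mice, so that PTU+TH mice 14 and 16 lay above all PTU mice and the other values overlapped. The log2 fold change was 0.25 (SE 0.12, 95% interval -0.01 to 0.50, edgeR adjusted p = 0.42). As the longest of the 8 genes it followed the length trend among the PTU mice. Its corrected levels there were 52.13, 52.17, 54.14 and 49.84 CPM, a coefficient of variation of 3.37% against 13.9% before. The corrected PTU+TH levels, 54.54, 71.53, 57.26 and 61.11 CPM, all lay above them, the nearest values being 54.54 and 54.14 CPM, as in the 10.8% of all tested genes whose groups did not overlap on this scale, and the adjusted p was 0.208 in that fit.

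Chodl (ENSMUSG00000022860.15; chromosome 16, 78930948 to 78951733, plus strand) encodes a membrane protein of the C-type lectin family and marks the long-projecting type that also makes Nos1 and Npy. It had few counts, 159, 100, 73 and 87 in PTU and 123, 153, 101 and 128 in PTU+TH. These are 5.79, 3.76, 3.61 and 3.81 CPM against 5.19, 5.26, 4.59 and 6.09 CPM. PTU mouse 9 stood apart from the other 3 PTU mice, which all lay below the 4 PTU+TH mice. The log2 fold change was 0.31 (SE 0.21, 95% interval -0.14 to 0.76, edgeR adjusted p = 0.618), and without mouse 9 it was 0.51 with an adjusted p of 0.202.

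Elfn1 (ENSMUSG00000048988.8; chromosome 5, 139907943 to 139974722, plus strand) encodes a postsynaptic adhesion protein that recruits metabotropic glutamate receptors to the excitatory inputs of SST neurons. Its levels were 105.1, 110.6, 144.6 and 130.3 CPM in the PTU mice and 84.24, 112.2, 104.6 and 133.4 CPM in the PTU+TH mice. The groups overlapped over most of their ranges, with a log2 fold change of -0.18 (SE 0.14, 95% interval -0.48 to 0.13, edgeR adjusted p = 0.693). Hpse (ENSMUSG00000035273.14; chromosome 5, 100679484 to 100719716, minus strand) encodes heparanase, which cuts the heparan sulfate chains of the extracellular matrix. It stood at 6.30, 7.49, 9.06 and 7.13 CPM in the PTU mice and 7.80, 9.08, 7.54 and 7.47 CPM in the PTU+TH mice, from 157 to 264 counts. Its log2 fold change was 0.09 (SE 0.16, 95% interval -0.26 to 0.45, edgeR adjusted p = 0.907), and 3 of the 4 PTU+TH values lay within the PTU range, with the fourth, 9.08 CPM, at its upper edge.

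**Figure D3:**
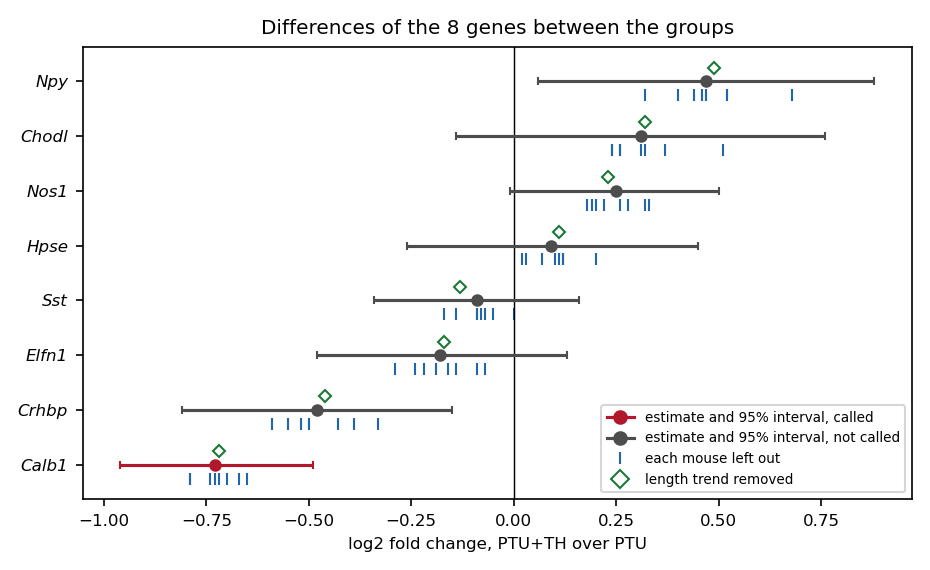
Log2 fold change of PTU+TH over PTU for each gene (x axis) with its 95% interval from the edgeR fit, red where called. Blue ticks are the 8 fits that leave out a mouse each and green diamonds the fit with the length trend removed. Calb1 stays between -0.79 and -0.65 in the fits without a mouse, while those of Sst run from -0.17 to 0.00081.

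Because Sst itself differed little, each gene was also set against Sst in the same library, as a description. Calb1 stood at 83.3%, 86.2%, 81.6% and 90.0% of the Sst CPM in the PTU mice and at 52.5%, 63.4%, 46.8% and 56.8% in the PTU+TH mice. The SD of the log2 ratio was 0.06 among the PTU mice and 0.18 among the PTU+TH mice, and the groups did not overlap. Npy stood at 47.1%, 44.0%, 32.6% and 31.6% of Sst in PTU and at 56.5%, 64.1%, 54.4% and 58.2% in PTU+TH. For Npy the groups thus did not overlap on this scale, where they did overlap in CPM. Calb1 and Npy were the members without overlap relative to Sst, an ordering that 5.98% of 17354 genes also showed. Mean log2 ratios differed between the groups by -0.64 for Calb1, 0.61 for Npy, 0.42 for Chodl, -0.40 for Crhbp, 0.33 for Nos1, 0.18 for Hpse and -0.10 for Elfn1. These ratios share the Sst value of their library and compare genes of unequal length within it.

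**Figure D4:**
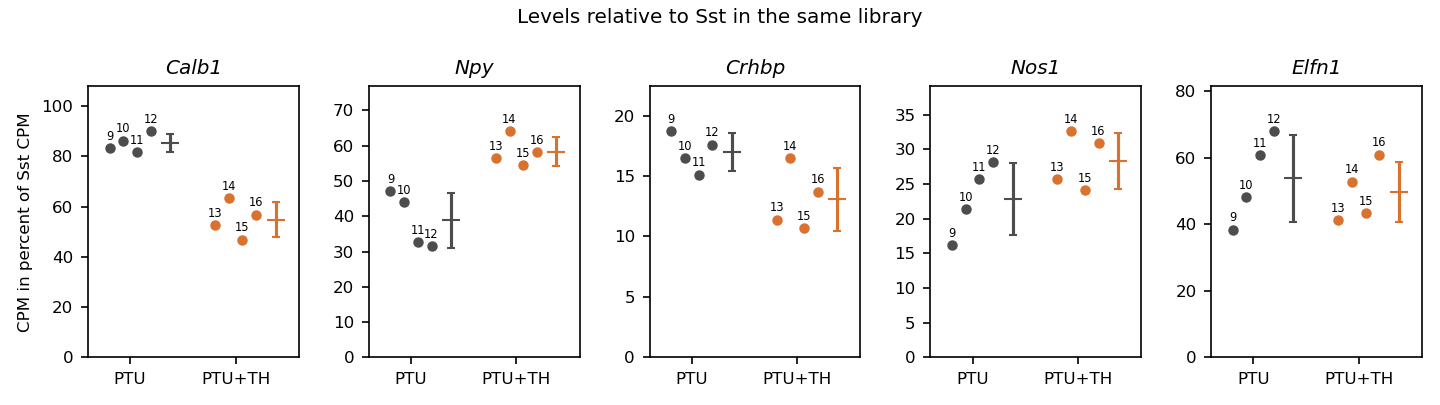
CPM of 5 genes in percent of the Sst CPM of the same library (y axis, from 0), by mouse (numbered points) with mean and SD. The PTU mice lie between 81.6% and 90.0% for Calb1 and between 31.6% and 47.1% for Npy, and the PTU+TH mice lie apart from them in both panels.

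Levels of different genes were compared per kilobase of annotated exon and of gene body, because it is not stated whether intron reads were counted. In PTU, Sst led with 324.1 ± 46.6 CPM per kb, followed by Npy with 161.5 ± 51.9, Calb1 with 40.88 ± 4.68, Elfn1 with 29.41 ± 4.37 and Crhbp with 22.10 ± 4.33 (SD, n = 4). Nos1 followed with 4.68 ± 0.648, Hpse with 2.13 ± 0.328 and Chodl with 0.773 ± 0.189 CPM per kb (SD, n = 4). The intervals of 1 SD around Elfn1 and Crhbp overlapped in this group. In PTU+TH the order was kept except that Elfn1 (26.04 ± 4.87) came before Calb1 (24.71 ± 2.53 CPM per kb; SD, n = 4), which did not differ beyond their spread. Nuclear RNA holds introns, and the order per kilobase of gene body was another one. In PTU+TH Calb1 (4.47 ± 0.457 CPM per body kb; SD, n = 4) came before both Crhbp and Elfn1 on that scale. In both groups Crhbp came before Elfn1, at 2.94 ± 0.575 and 1.84 ± 0.273 CPM per body kb in PTU (SD, n = 4), with intervals of 1 SD that did not overlap in PTU but did in PTU+TH. In both groups Chodl came before Hpse, at 0.204 ± 0.0498 and 0.186 ± 0.0287 CPM per body kb in PTU (SD, n = 4), within the spread. The distance between the leading genes also depended on the length used, with Sst at 167.9 ± 24.1 and Npy at 13.54 ± 4.35 CPM per body kb in PTU (SD, n = 4). Sstr2, Gfap and Crispld2 share 0.0% of their exon bases with other genes, yet each had 0 counts in every library. With 0.0% of their bodies free of other genes, such zeros go with counting over whole gene bodies. The exon scale would then overstate genes whose bodies are mostly intron. The bodies of all 8 genes are at least 97.8% free of other annotated genes, so little of their counts can be shared with a neighbour.

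Among mice, Crhbp and Calb1 varied together. All 28 pairs of the 8 genes were compared by the exact permutation test of Pearson's r over the 8 libraries, two-sided, with Benjamini-Hochberg adjustment over the 28. The pair Crhbp and Calb1 was the only one to pass (exact permutation adjusted p = 0.00556 for r and 0.0111 for Spearman's rho). That test pools both groups, so the lower level of Calb1 in PTU+TH, and that of Crhbp, are part of what passed. For this pair r is therefore given for deviations from the group means only, as a description with no p over 8 libraries that share their sort and depth. It was 0.97 for Crhbp and Calb1 and 0.96 with the length trend removed. Crhbp made 22.5%, 19.2%, 18.6% and 19.6% of the Calb1 CPM in the PTU mice and 21.6%, 26.0%, 22.8% and 24.2% in PTU+TH. Without PTU mouse 9, 0 of the 28 pairs passed.

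No pair without Calb1 passed the adjustment. Over both groups pooled, Chodl and Npy had an r of 0.78 (exact permutation p = 0.0176, adjusted p = 0.246; Spearman's rho 0.64, exact permutation p = 0.0962, adjusted p = 0.815), and r was 0.80 without the 2 libraries farthest from the median of Chodl. For deviations from the group means r was 0.64, and 0.55 with the length trend removed. Pooled in the same way, Nos1 and Hpse had an r of 0.74 (exact permutation p = 0.0378, adjusted p = 0.353; Spearman's rho 0.60, exact permutation p = 0.132, adjusted p = 0.815), which went to 0.29 without the 2 libraries farthest in Nos1 and so rests on them. Their r for deviations from the group means was 0.73, and 0.53 with the length trend removed. Removing the length trend moved r in both directions. For within-group deviations, r of Sst and Npy, the 2 shortest genes, went from 0.84 to 0.31 when the length trend was removed, and that of Nos1 and Elfn1, the 2 longest, from 0.91 to 0.49. That of Nos1 and Crhbp went from 0.06 to 0.77, that of Nos1 and Calb1 from 0.10 to 0.73 and that of Sst and Elfn1 from -0.15 to 0.66. That of Npy and Calb1 was 0.81 before and 0.84 after.

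**Figure D5:**
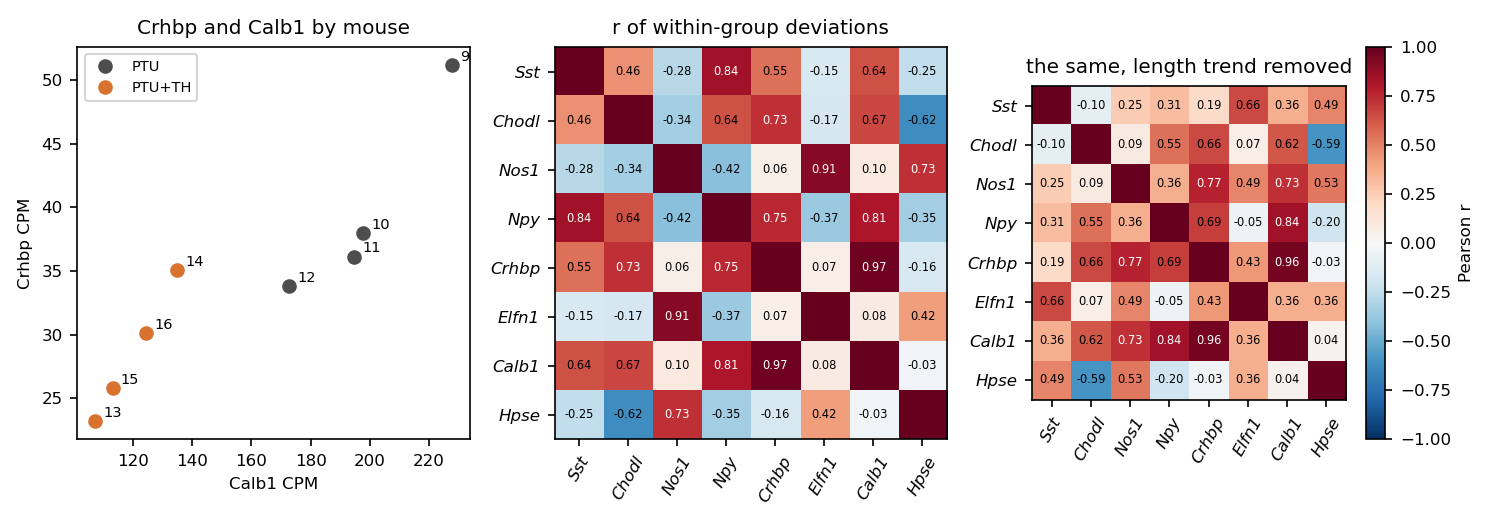
Left, Crhbp against Calb1 in CPM, a point per mouse. Middle and right, Pearson's r of within-group deviations of log2 CPM over 8 libraries for each pair of genes, as measured and with the length trend removed. Crhbp and Calb1 stay at 0.97 and 0.96, while Sst and Npy go from 0.84 to 0.31.

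Over 12951 named genes averaging 1 CPM or more, the genes most like Calb1 in their within-group deviations were Crhbp, Gcsh and Rnf141, each with an r of 0.97. For Crhbp they were Insyn1 (0.98), Calb1 (0.97) and Lrrc61 (0.96). Crhbp and Calb1 are thus each among the 3 closest genes of the other, and with the length trend removed Calb1 ranked 3 for Crhbp and Crhbp ranked 5 for Calb1. The pair had already passed in these same libraries, so its rank is a description and no further support. The genes most like Sst were Clta, Anp32e and Ccdc32 (each 0.99), and those most like Npy were Naa50, Dync2li1 and Bloc1s3 (each 0.99). For Chodl they were Klf15 (0.98), Snrpe (0.97) and Rangap1 (0.96), and for Nos1 they were Ttc27 (0.99), Dagla (0.98) and Ror2 (0.97). For Elfn1 they were Lrrc8d (0.98), Galnt10 (0.98) and Gnal (0.97), and for Hpse they were Arhgap23 (0.98), Pemt (0.96) and Fxr1 (0.96).

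Other genes of the class and of the pathways around the 8 were taken from lists. Of 16 further SST subtype markers 1 was called, higher, where 1.49% of all tested genes were. This was Mme, which encodes neprilysin, an enzyme at the cell surface that degrades somatostatin and other peptides. It stood at 19.56, 21.64, 26.42 and 29.79 CPM in the PTU mice and 45.20, 48.85, 40.61 and 44.30 CPM in the PTU+TH mice, with every PTU+TH mouse above every PTU mouse, as 8.71% of all tested genes separated in one direction or the other (log2 fold change 0.88, SE 0.13, edgeR adjusted p = 0.00328). In the 6 libraries with Y-linked counts its log2 fold change was 0.95 and its edgeR adjusted p was 0.058. The 16 had a median log2 fold change of -0.08, 5 were positive and 11 negative, and the lowest, Cbln4 at -0.73, had an edgeR adjusted p of 0.0945. Of the 5 tested transcription factors of the lineage that gives rise to SST and PV neurons 0 were called. Lhx6, which this lineage keeps into adulthood, stood at 156.8 ± 9.68 CPM in the PTU mice and 148.8 ± 15.0 CPM in the PTU+TH mice (SD, n = 4 each; edgeR adjusted p = 0.85).

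Around Calb1, 13 genes of EF-hand calcium-binding proteins were tested, and 0 were called higher and 2 lower, against 1.49% and 0.634% of all tested genes. The list was chosen with earlier results of these data known, so its count is no measure of enrichment. Necab1 had 135.8, 142.4, 126.6 and 160.0 CPM in the PTU mice and 97.73, 82.71, 98.63 and 100.4 CPM in the PTU+TH mice (log2 fold change -0.57, SE 0.10, edgeR adjusted p = 0.00793). Necab2 had 68.48, 63.11, 72.39 and 70.24 CPM against 57.76, 54.18, 51.24 and 46.54 CPM (log2 fold change -0.39, SE 0.09, edgeR adjusted p = 0.0468). In both genes every PTU mouse lay above every PTU+TH mouse. A further member, Cabp1, separated the groups in the other direction, with 57.73 CPM in the PTU mice and 68.84 CPM in the PTU+TH mice on average, and had a log2 fold change of 0.25 that did not pass (edgeR adjusted p = 0.192). Such separation was seen in 8.71% of all tested genes. Necab2 lost its call under 13 of 18 alternatives, leaving out any single mouse among them. Necab1 lost its call in the 6 libraries with Y-linked counts (log2 fold change -0.65, edgeR adjusted p = 0.0882). Both encode neuronal calcium-binding proteins, and 8 of the 13 list members had positive estimates, with a median of 0.07.

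The remaining lists held 0 called genes. They were 9 tested receptors of somatostatin, neuropeptide Y and corticotropin-releasing hormone (median log2 fold change -0.01), 10 genes of peptide processing (0.14), 7 of nitric oxide signalling (0.06), 5 partners and relatives of ELFN1 (-0.08) and 16 of heparan sulfate (-0.10). Sstr2, a receptor of somatostatin, was listed at 0 in every library, and its whole body lies inside another annotated gene, so nothing is read from that 0. Among the other GABAergic classes, 1 of 5 tested PV markers was called higher, Syt2 (log2 fold change 1.15, edgeR adjusted p = 0.00603). Of 6 tested VIP markers 1 was called lower, Htr3a (-1.11, adjusted p = 0.0344), and of 6 LAMP5 markers 0 were called. By comparison, 1.49% of all tested genes were called higher and 0.634% lower. The PV list had 4 of 5 estimates positive (median 0.34), and the VIP list had 5 of 6 negative (median -0.29). Syt2 lost its call in the 6 libraries with Y-linked counts (edgeR adjusted p = 0.13) and with Y-linked counts as a term (0.0583), with a log2 fold change of 1.15 in both. Htr3a lost its call under 8 of 18 alternatives, among them both of these and leaving out mouse 9, 10, 14, 15 or 16, with edgeR adjusted p up to 0.334. Neither the 7 tested pan-GABAergic genes nor the tested astrocyte, oligodendrocyte, microglia and endothelial markers held a called gene. Gfap and P2ry12, of the astrocyte and microglia lists, were listed at 0 in every library, as was the pan-GABAergic gene Dlx1. The whole body of each of these 3 genes overlaps another annotated gene, so nothing is read from these zeros. Median log2 fold changes were 0.15 for the 5 tested astrocyte markers (4 positive), 0.68 for 5 oligodendrocyte markers (4 positive), 0.63 for 5 microglia markers (5 positive) and -0.11 for 6 endothelial markers (1 positive). Oligodendrocyte markers summed to between 89.4 and 107.1 CPM in the PTU mice and between 84.33 and 173.7 CPM in the PTU+TH mice. For microglia the sums were 49.95 to 69.36 CPM and 59.53 to 77.09 CPM, for astrocytes 125.0 to 240.6 CPM and 127.2 to 366.4 CPM, and for endothelium 34.95 to 151.6 CPM and 33.97 to 109.8 CPM. Their part in the values of the 8 genes was not tested.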

How the data were processed

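Raw counts of reads per gene were deposited by the authors, 1 file per library and no header line. Bowtie2 2.5.3 and the builds mm10 and GRCm38 are named in the submitters' processing notes. The counting program, annotation, strand and intron handling are not given in the sources used here. The 55341 symbols equal those of GENCODE M21 (GRCm38), which gave positions and lengths. Pairs of libraries in a group differed beyond sampling noise (chi-square per degree of freedom 8.38 to 72.61).

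Counts were tested with edgeR 4.0.16 (filterByExpr, TMM, robust quasi-likelihood, group as the only term), two-sided, with Benjamini-Hochberg adjustment over 17355 genes, and genes were called at an adjusted p under 0.05. DESeq2 1.42.0 and limma 3.58.1 were alternatives. The 95% intervals use the test's degrees of freedom. The length trend was a lowess curve (span 0.3) per library of log2(CPM + 0.1) deviations on gene-body length, entered as an offset. Scripts were tested on simulated data. Members and lists were chosen with earlier results of these data known. By rule, the 8 members, called list genes, defining markers and the 3 closest genes of each member were named, and other list genes were named after their values were seen. Mice are 1 per library, p-values cover spread between mice, and CPM precision follows the counts.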

Additional observations from a re-analysis of the deposited data

Results flagged for a closer look

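Each of 90 sets of 4 values was searched for a mouse far from the remaining ones. The sets were the members, the called list genes, the members relative to Sst, the summed lists, the library totals and the detected genes, in each group. In 4 sets a mouse stood apart, and chance alone gives about 5% of sets, here 4.5. PTU mouse 9 accounts for 2 of the 4. PTU mouse 9 had 5.79 CPM of Chodl while its group otherwise ranged from 3.61 to 3.81 CPM, a gap of 0.911 of the whole range. For Necab1, PTU+TH mouse 14 had 82.71 CPM and its group otherwise 97.73 to 100.4 CPM (gap 0.849). Htr3a, a marker of the VIP class, reached 11.37 CPM in PTU mouse 9, with the rest of the group between 6.25 and 6.83 CPM (gap 0.888). The 6 endothelial markers summed to 151.6 CPM in PTU mouse 10, with the rest of the group between 34.95 and 53.88 CPM (gap 0.838).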

How the results depend on the processing

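Calb1 was called under 17 of 18 alternatives, with log2 fold changes from -0.79 to -0.65. In the 6 libraries with Y-linked counts it was -0.71 and not called, and the cause was not tested. Leaving out a mouse at a time gave -0.79 to -0.65 for Calb1, 0.32 to 0.68 for Npy (called without PTU mouse 9) and -0.17 to 0.00081 for Sst, whose sign turned without PTU mouse 9. The other 5 members were called under none of their 18 alternatives and kept their sign.

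Against 368 called genes there were 721 with DESeq2 (367 shared), 58 in the 6 libraries with Y-linked counts (55 shared), 129 with Y-linked counts as a term (121 shared) and 712 with the length trend removed (360 shared), an alternative chosen after seeing the data. Leaving out a mouse gave 182 (without PTU+TH mouse 15) to 499 (without PTU mouse 9). The cause was not tested. Of 28 pairs of members, 0 to 1 passed when a mouse was left out. The difference in library totals, 0.0954 M counts (exact permutation p = 1), ran from -1.57 (without PTU+TH mouse 14) to 0.875 and was also negative without PTU mouse 11, at -0.571. No paired analysis was possible because the groups share no mouse numbers. Chodl and Hpse, with 73 to 264 counts per library, are the members that depth limits most.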

Other observations

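The peptide genes named next were picked after their values were seen, because their groups did not overlap, and none of them was called. They come from lists of 9 tested receptor and 10 tested processing genes, and 8.71% of all tested genes separated the groups in this way. All 3 were lower in PTU+TH, while 8 of the 10 processing genes and 4 of the 9 receptors had positive estimates. Npy1r, a receptor of neuropeptide Y, averaged 20.35 ± 4.97 CPM in the PTU mice and 14.07 ± 1.91 CPM in the PTU+TH mice (SD over 4 mice; log2 fold change -0.54 with an edgeR adjusted p of 0.166). Crhr2, a receptor in the corticotropin-releasing hormone system that Crhbp also belongs to, averaged 29.51 ± 4.07 and 22.07 ± 1.96 CPM (log2 fold change -0.42, adjusted p = 0.121). Pcsk1, a protease that cuts peptide precursors, averaged 18.44 ± 3.82 and 12.73 ± 0.710 CPM (log2 fold change -0.54, adjusted p = 0.0968).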
